A study of Mus musculus with 9 samples.

Results

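The genes examined encode the mitochondrial respiratory chain and the ATP synthase, the enzymes of oxidative phosphorylation. A gene was included if the only symbol of a probe set on the array was Cyc1, Cycs, Sdha, Sdhb, Sdhc or Sdhd, or began with Nduf, Uqcr, Atp5, Cox4, Cox5, Cox6, Cox7 or Cox8. This rule gave 73 genes of the 8252 genes that had a probe set with a single symbol. They comprised 31 genes of complex I, 4 of complex II, 8 of complex III, cytochrome c itself, 15 genes of complex IV and 14 of the ATP synthase. The complex I genes were 4 core subunits, 25 accessory subunits and 2 assembly factors. Where a gene had more than 1 probe set, as 21 genes did, the one with the highest mean over all arrays stood for it.

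In oxidative phosphorylation, complexes I and II take electrons from NADH and succinate, complex III passes them to cytochrome c, and complex IV, cytochrome c oxidase, hands them to oxygen. The proton gradient built on the way drives the ATP synthase. Several small subunits of complex IV exist as a ubiquitous and a heart and muscle isoform, striated muscle is rich in mitochondria, and the fibre cells of the lens lose theirs as they mature.

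Gene expression was measured in mice on 9 oligonucleotide arrays, each hybridised with biotin-labelled target made from 5 ug of total RNA. Adult cornea at 7 weeks had 3 arrays, cornea at postnatal day 10 (P10) had 2, adult lens at 7 weeks had 2 and the flexor digitorum longus tendon of 7-week adults had 2. No group had a treatment or genetic change in the labels, and strain and sex are not given in the sources used here. Corneas were cut free of the limbus and most of the epithelium was scraped away to enrich for stroma, but much epithelial RNA remained. The summed index of 19 corneal epithelium markers was 31410 to 33760 in adult cornea and 33490 to 34800 in P10 cornea. The stromal share of the corneal RNA was not tested. Replicates were independent preparations of RNA, from pooled tissue in the case of lens and tendon, and p-values rest on how far those preparations varied. Because the cornea arrays were made for earlier work, tissue and batch cannot be told apart where cornea is compared with lens or tendon. In whole tissue, fewer cells of a type and less RNA per cell cannot be told apart.

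Values are the deposited expression indices, in arbitrary units, and a level of 1 gene is never set against that of another. The median index per array was 67.6 to 88.0, and replicates correlated at r = 0.869 to 0.927 in adult cornea and 0.953 to 0.978 in the other groups, across probe sets. The index of Krt12, a keratin of the corneal epithelium, was 6440 to 8290 in the 5 cornea arrays, 1603 and 1758 in lens and 257 and 401 in tendon. Cryaa, a lens crystallin, was at 6405 and 7231 in lens, 1280 to 3082 in cornea and 12.2 and 31.7 in tendon. Fmod, a tendon proteoglycan, was at 5455 and 6342 in tendon and 45.2 to 588 elsewhere. Adult cornea replicate 1 stood apart in its RNA controls, with a 3′ to 5′ ratio of 2.25 for Gapdh against 0.831 to 1.04 on the other arrays.

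Of the 73 genes, 66 were tested, since they were at or above the array median on 2 or more arrays. The 7 others, Cox6b1, Cox8a, Ndufa12, Ndufaf1, Ndufaf4, Ndufc2 and Ndufs4, have values but no test. Of the 66 tested genes 55 were at or above the median on every array, whereas 6 passed only through a single group, 2 of them through lens and 4 through tendon. Differences are given as log2(index + 16), with indices below 0 set to 0, and were tested with limma across 8154 probe sets. A gene is called when its p-value, adjusted over all of those probe sets, is under 0.05. By group mean, tendon was the highest group for 45 of the 73 genes and lens for 22, while P10 cornea was the lowest for 36 and lens for 21.

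**Figure D1:**
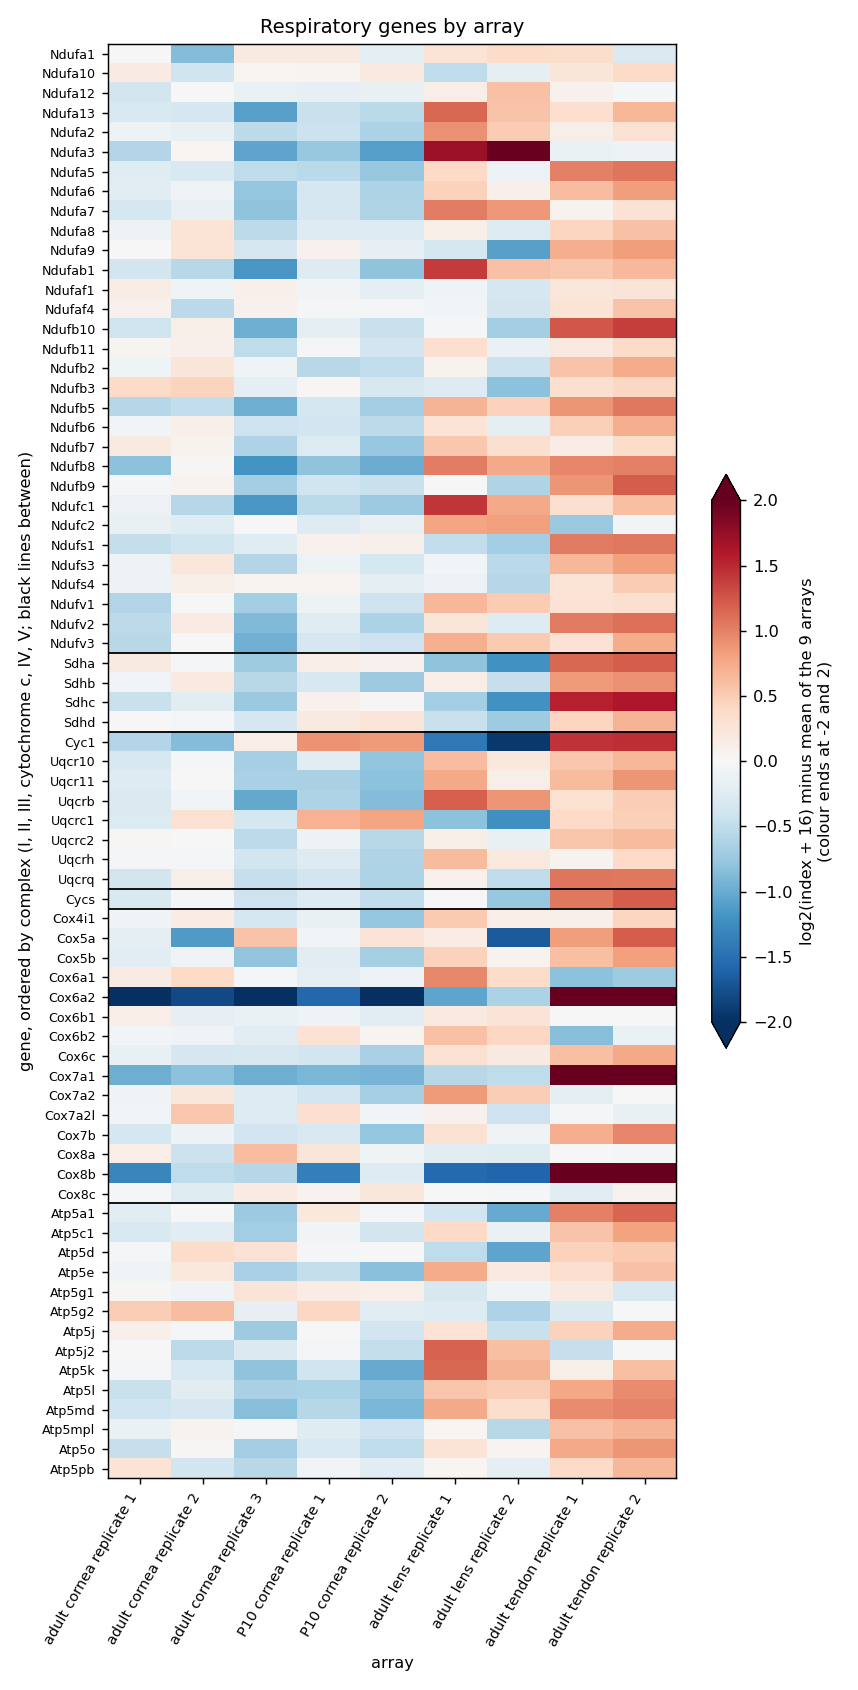
Heat map of the 73 genes (rows, grouped by complex) on the 9 arrays (columns), coloured by log2(index + 16) minus the gene's mean over the arrays, with colours at their limit beyond 2 in either direction. The tendon columns are the warmest for most genes, and the lens columns split between high and low genes within complex I and complex III.

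More of these genes were called higher in tendon than in cornea than the reverse. Of the 66 tested genes 41 were higher in tendon than in adult cornea and 1 was higher in cornea. Among all tested probe sets 35.0% were called, 18.9% higher in tendon and 16.1% higher in adult cornea. The members' median difference, tendon minus adult cornea, was 0.76 on the log2 scale, against -0.01 over all tested probe sets. In the comparison of tendon with P10 cornea 38 were higher in tendon and 0 were higher in P10 cornea, where 26.7% of all tested probe sets were called, 11.0% and 15.7% in these directions. The count of 0 is that of the main limma fit, and it was 1 with quantile normalization or with only the groups compared. The methods' t-test also gave 0. The median difference there was 0.92, against -0.13 over all tested probe sets. Cox6a2, Cox7a1, Cox8b and Sdha, in both the 41 and the 38, passed the filter through tendon only. Their being called follows in part from the filter. By value, the mean of 64 of the 73 genes was higher in tendon than in adult cornea, and for 56 the tendon arrays lay above all adult cornea arrays, as they did for 29.9% of all tested probe sets. The reverse held for 1 gene, against 28.1% of all tested probe sets. Against P10 cornea the tendon arrays lay above for 62 genes (background 30.5%) and below for 3 (background 46.1%). Leaving out tendon replicate 1 lowered the count of 41 to 23, and leaving out tendon replicate 2 lowered it to 16, in both cases with 4 genes no longer passing the filter, whereas 35 were called without adult cornea replicate 1. Of the 38 called against P10 cornea, 15 were left without tendon replicate 1, 12 without tendon replicate 2 and 19 without P10 replicate 2.

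The tendon RNA also held muscle transcripts. Of 28 tested skeletal muscle markers 27 were higher in tendon than in adult cornea, although 15 of the 28 passed the filter through tendon only and so could hardly be called otherwise. Of the 12 that did not depend on a single group, 12 were higher in tendon. The summed index of the 29 measured markers was 70690 to 83920 in tendon, 900 to 1168 in adult cornea, 1366 to 1745 in P10 cornea and 2804 to 3276 in lens. The muscle creatine kinase Ckm was at 3349 and 3880 in tendon and at 3.90 to 19.6 on the 7 other arrays. Myoglobin, Mb, was at 3225 and 3450 in tendon and at -10.0 to 11.1 elsewhere, around 0. Of 8 tested adipocyte markers 7 were higher in tendon, 3 of the 8 having passed through tendon only, with a sum of 10050 to 10880 in tendon against 675 to 1006 in adult cornea. The part of muscle or fat RNA in the tendon differences below was not tested.

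Cox6a2, Cox7a1 and Cox8b are the heart and muscle isoforms of complex IV subunits, and Cox6a1, Cox7a2 and Cox8a are their ubiquitous counterparts. The stretch of 250 bases before the annotated start is printed for both muscle isoforms that have one in the table used and for 2 ubiquitous counterparts, because the muscle and ubiquitous forms of a subunit had unlike values across these tissues. Sequences are from RefSeq on GRCm38.p6, 5′ to 3′ on the strand of the gene, and capitals mark a match to a searched motif. The windows are chr7:30183921-30184170 on the plus strand for Cox7a1, chr7:140900447-140900696 on the minus strand for Cox8b, chr5:115348959-115349208 on the minus strand for Cox6a1 and chr9:79759854-79760103 on the minus strand for Cox7a2.
Cox7a1: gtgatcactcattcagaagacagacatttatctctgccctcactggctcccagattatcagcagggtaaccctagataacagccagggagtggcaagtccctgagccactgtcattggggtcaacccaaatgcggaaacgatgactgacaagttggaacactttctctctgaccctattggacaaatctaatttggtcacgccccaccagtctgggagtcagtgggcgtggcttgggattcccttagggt
Cox8b: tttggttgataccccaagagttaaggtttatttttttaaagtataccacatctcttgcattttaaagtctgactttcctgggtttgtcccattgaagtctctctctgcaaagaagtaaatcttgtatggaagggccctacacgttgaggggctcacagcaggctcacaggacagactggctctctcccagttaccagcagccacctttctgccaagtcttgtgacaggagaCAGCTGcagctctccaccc
Cox6a1: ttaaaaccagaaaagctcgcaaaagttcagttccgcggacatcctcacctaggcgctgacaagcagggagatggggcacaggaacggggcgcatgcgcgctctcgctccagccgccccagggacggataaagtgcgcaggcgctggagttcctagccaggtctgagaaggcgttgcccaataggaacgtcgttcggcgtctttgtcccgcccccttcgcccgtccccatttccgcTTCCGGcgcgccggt
Cox7a2: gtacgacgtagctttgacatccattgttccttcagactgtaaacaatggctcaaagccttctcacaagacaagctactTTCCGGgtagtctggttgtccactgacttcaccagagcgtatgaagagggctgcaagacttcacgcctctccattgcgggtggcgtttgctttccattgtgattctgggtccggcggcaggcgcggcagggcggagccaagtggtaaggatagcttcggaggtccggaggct
The motifs, read on both strands with no overlap among their matches here, were CAGCTG, an E-box of the kind bound by myogenic factors, and CCGGAA, the core of ETS and GABP sites. CAGCTG lay 19 bases before the start of Cox8b, and CCGGAA lay 15 bases before that of Cox6a1 and 172 before that of Cox7a2. Neither motif was found in the Cox7a1 window. Among the 59 of 73 members with such a window, CCGGAA was in 28.8%, against 12.2% of 27025 genes, and CAGCTG in 6.78% against 12.8%. These matches describe letters only.

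Cox6a2 had an index of 3408 and 3609 in the tendon arrays, 18.4 and 30.2 in lens, 8.12 and 2.09 in P10 cornea, and 2.00, 4.55 and -0.42 in adult cornea. Only the tendon arrays stood clear of 0 by a wide margin, with no overlap. The difference, tendon minus adult cornea, was 7.61 ± 0.22 (SE) on the log2 scale, with a limma adjusted p of 1.81e-08. It was 7.40 ± 0.24 against P10 cornea and 6.46 ± 0.24 against lens. With indices this near 0 the size depends on the pseudocount: tendon minus adult cornea was 10.42 with a pseudocount of 1 and 5.75 with 64.

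Cox7a1 was at 189 and 233 in tendon, at 5.62 and 6.19 in lens, and between -3.24 and 1.84 in the 5 cornea arrays. Outside tendon it was listed at or around 0. Tendon exceeded adult cornea by 3.77 ± 0.21 (SE) on the log2 scale (limma adjusted p = 5.60e-07), or by 7.22 and 2.09 with pseudocounts of 1 and 64. Cox8b was at 1017 and 1119 in tendon, 14.7 and 14.1 in lens, 19.0 and 59.4 in P10 cornea, and 20.4, 47.3 and 44.7 in adult cornea. Tendon exceeded adult cornea by 4.38 ± 0.33 (SE) on the log2 scale (limma adjusted p = 4.53e-06), and a second Cox8b probe set gave 4.30 ± 0.24. These 3 genes kept their calls against adult cornea, P10 cornea and lens in each of the 7 fits that left out an array other than tendon. Without either tendon array they did not pass the filter and were not tested. They are among the 4 genes that passed through tendon only, so their being called follows in part from the filter.

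The ubiquitous counterparts had another pattern. Cox6a1 had its lowest values in tendon, at 584 and 629.9, against 922 and 957 in P10 cornea, 1168, 1382 and 1010.5 in adult cornea and 2044 and 1347 in lens. It was the member called higher in adult cornea than in tendon, by 0.94 ± 0.21 (SE) on the log2 scale (limma adjusted p = 0.00627), and without tendon replicate 1 the call was lost (adjusted p = 0.0688). Lens exceeded tendon by 1.43 ± 0.23 for Cox6a1 (limma adjusted p = 0.00058). Cox7a2 was at 616 and 694 in tendon, 666, 825 and 581 in adult cornea, 533 and 437 in P10 cornea, and 1270 and 988 in lens. Its tendon and adult cornea arrays overlapped, and the difference, adult cornea minus tendon, of 0.06 ± 0.21 (SE) was not called (limma adjusted p = 0.847). Cox8a, the ubiquitous subunit 8, was below the filter, at 14.8 to 47.3 on the 9 arrays, and could not be set beside Cox8b.

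**Figure D2:**
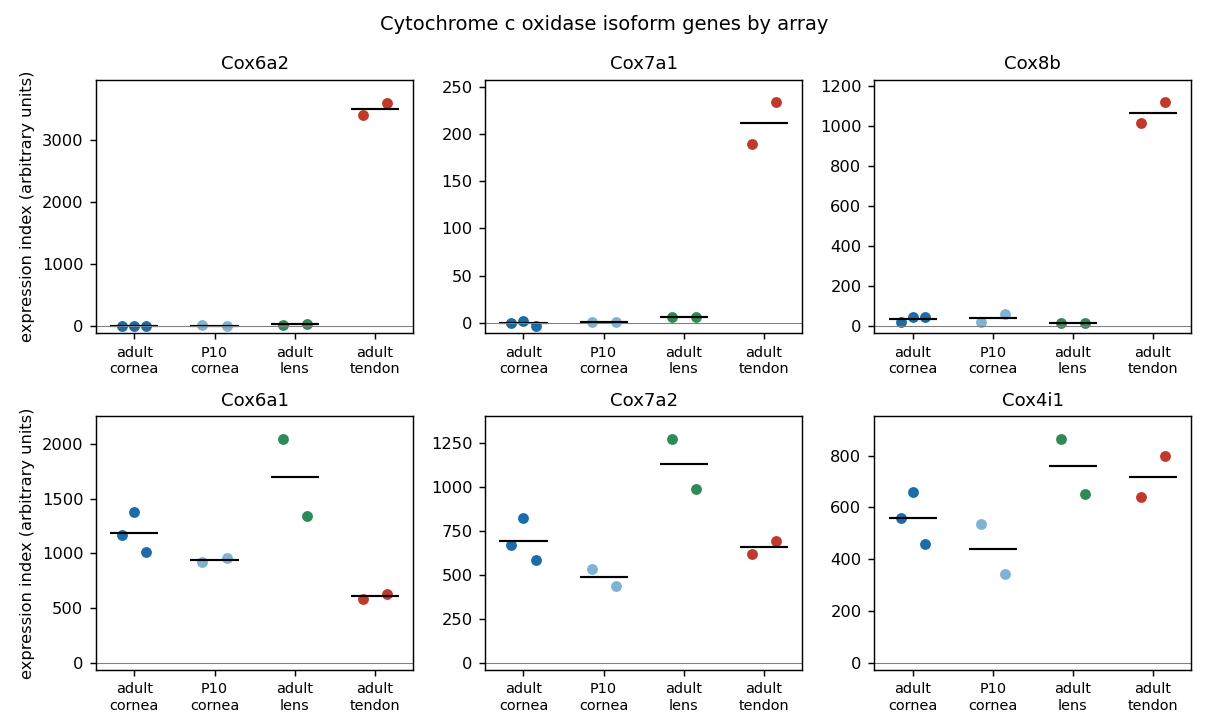
Expression index (arbitrary units) of the muscle isoforms and their ubiquitous counterparts on each array, 1 panel a gene, with points for arrays and a line for the group mean. Cox6a2, Cox7a1 and Cox8b are high only in the tendon arrays (3408 and 3609 for Cox6a2), while Cox6a1 is lowest there (584 and 629.9).

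Of the 13 tested complex IV genes 6 were higher in tendon than in adult cornea, 3 of them the muscle isoforms, and 1, Cox6a1, was lower. Among the others, Cox5b, a nuclear-encoded structural subunit, was at 1082 and 1252 in tendon and between 400.3 and 673 in the 5 cornea arrays. Tendon exceeded adult cornea by 1.07 ± 0.26 (SE; limma adjusted p = 0.00851), a call lost without tendon replicate 2 (adjusted p = 0.0894). Cox6c was higher in tendon than in adult cornea by 0.95 ± 0.16 (SE; limma adjusted p = 0.001), although taking the mean over its probe sets ended that call (adjusted p = 0.0581). Cox4i1, the general isoform of subunit 4, had a tendon mean of 719 ± 114 (SD, n = 2) against 559 ± 99.3 (SD, n = 3) in adult cornea, and that difference of 0.36 ± 0.25 was not called. Cox5a, with indices from 69.6 to 264 within adult cornea, was not called against tendon either. Cox7a2l, a supercomplex assembly factor, and Cox8c, known from testis, were called in 0 of the 6 comparisons by the probe sets that stood for them. A second Cox8c probe set was called higher in lens than in tendon, by 0.74 on the log2 scale.

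Complex II, succinate dehydrogenase, was the smallest complex on the array and was called higher in tendon than in adult cornea for 4 of 4 genes. Sdhc, a membrane anchor, was at 634 and 664 in tendon, 219 and 209 in P10 cornea, 122 and 79.2 in lens, and 146, 174 and 116 in adult cornea. Tendon stood above every other array, by 2.06 ± 0.22 (SE) on the log2 scale over adult cornea (limma adjusted p = 5.82e-05). Sdha, the flavoprotein that binds succinate, was at 130.2 and 136 in tendon and 24.4 to 59.0 in adult cornea, a difference of 1.36 ± 0.27 (SE; limma adjusted p = 0.00299), and it passed the filter through tendon only. Sdhb, the iron-sulphur subunit, exceeded adult cornea by 1.02 ± 0.27 and Sdhd, the other anchor, by 0.68 ± 0.20. Both of the latter calls were lost when either tendon array was left out, with adjusted p up to 0.0992 and 0.207.

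In complex I, 17 of 26 tested genes were higher in tendon than in adult cornea and 0 lower, including 4 of 4 core subunits and 13 of 22 accessory subunits. Ndufs1, the largest iron-sulphur subunit, was at 480 and 488 in tendon, 158, 168 and 188 in adult cornea, 241 and 244 in P10 cornea, and 156 and 136 in lens. Tendon was highest without overlap, by 1.42 ± 0.17 (SE) over adult cornea (limma adjusted p = 0.000134). Ndufv2, an iron-sulphur subunit of the NADH-oxidising module, was at 1070.2 and 1117 in tendon against 354, 575 and 270.3 in adult cornea, a difference of 1.48 ± 0.30 (SE; limma adjusted p = 0.00331). Ndufv1, which binds NADH and flavin, and Ndufs3, a core subunit of the peripheral arm, were higher by 0.72 ± 0.23 and 0.90 ± 0.26, and both calls were lost without either tendon array, with adjusted p up to 0.165 and 0.156. The Ndufv1 call was also lost without adult cornea replicate 1 or 3. Among accessory subunits the largest difference was that of Ndufb10, at 894 and 982 in tendon and 178 to 402 in adult cornea, which gave 1.73 ± 0.31 (SE; limma adjusted p = 0.0017).

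In complex III, 6 of 8 genes were higher in tendon than in adult cornea. Cyc1, cytochrome c1, is the subunit that passes electrons to cytochrome c and is described with the age comparison below. Uqcrq, a small subunit, was at 1837 and 1804 in tendon against 665, 939 and 622 in adult cornea, 1.30 ± 0.24 higher (SE; limma adjusted p = 0.00178). Cycs, the soluble carrier cytochrome c, was at 389 and 437 in tendon, 143, 177 and 131 in adult cornea, 147 and 123 in P10 cornea, and 178 and 99.0 in lens. Tendon was clear of all other arrays, by 1.38 ± 0.25 (SE) over adult cornea (limma adjusted p = 0.00163) and by 1.52 ± 0.27 over lens (limma adjusted p = 0.00104).

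In the ATP synthase, 7 of 14 genes were higher in tendon than in adult cornea. Atp5a1, the alpha subunit of the catalytic head, was at 2112 and 2362 in tendon, 893, 1038 and 629 in adult cornea, 1209 and 1026 in P10 cornea, and 802 and 510.1 in lens. The tendon arrays were above all others, and the difference from adult cornea was 1.40 ± 0.25 (SE; limma adjusted p = 0.00168). Atp5l, subunit g of the membrane part, was at 2563 and 2894 in tendon and 950.0 to 1291 in adult cornea, a difference of 1.29 ± 0.17 (SE; limma adjusted p = 0.000239). A second, much dimmer Atp5l probe set was at 29.2 and 32.6 in tendon and 13.1 to 51.6 in adult cornea, which overlapped, with 0.17 ± 0.33 and no call, and it was higher in lens than in tendon by 1.58 ± 0.36 (SE; limma adjusted p = 0.00458). Atp5md, the small subunit also known as DAPIT, was 2.83-fold higher in tendon (limma adjusted p = 0.000386). Atp5g1, which encodes a copy of the c ring, had means of 89.9 ± 24.9 (SD, n = 2) in tendon and 99.0 ± 14.0 (SD, n = 3) in adult cornea and was not called.

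**Figure D3:**
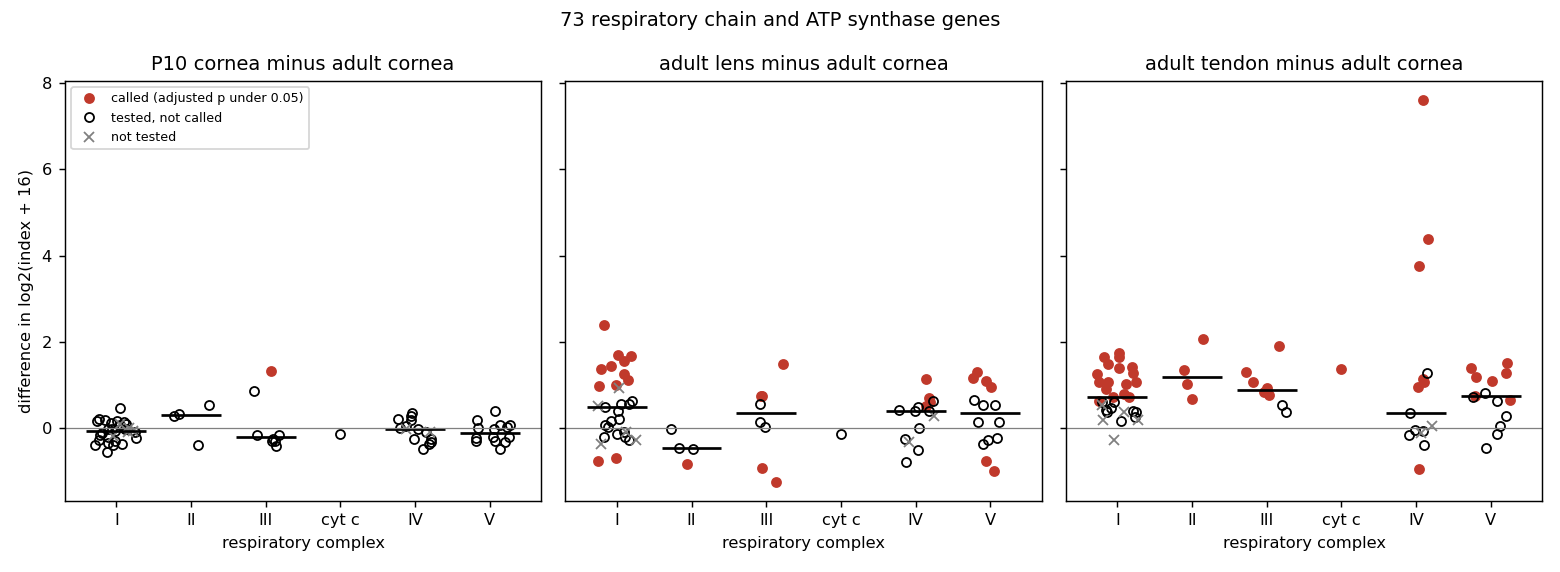
Log2 difference from adult cornea for each gene (points), by complex, in P10 cornea, lens and tendon, with filled points for called genes. A line marks the median of a complex. Points for tendon lie mostly above 0 in every complex, and those for lens lie on both sides.

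The lens did not differ from the cornea in 1 direction. Of 22 tested accessory subunits of complex I 9 were higher in lens than in adult cornea and 2 lower, while Sdha, Cyc1 and Uqcrc1, core subunits of complexes II and III, were lower. The other core subunits of these complexes, Sdhb, Sdhc, Sdhd and Uqcrc2, were not called, and Uqcrc2 had the higher mean in lens (298 against 271). Of the 66 tested genes 21 were higher in lens than in adult cornea and 7 were lower. Among the 21, Atp5j2 and Cox6b2 passed the filter through lens only, so their being called follows in part from the filter. Cox6a2, at 18.4 and 30.3 in lens and around 0 in adult cornea, and Sdha, among the 7, passed it through tendon only. Among all tested probe sets, 24.0% were called higher in lens and 27.2% higher in adult cornea, so 51.2% were called in either direction, against 42.4% of the tested members. The members' median difference, lens minus adult cornea, was 0.40 on the log2 scale, against -0.08 over all tested probe sets. Against P10 cornea 28 members were higher in lens and 8 lower, where 51.0% of all tested probe sets were called, 19.4% and 31.6% in these directions, and the median difference was 0.36 against -0.25 over all tested probe sets. Atp5j2 and Cox6a2 were again among the higher genes and Sdha among the lower. The lens arrays lay above all adult cornea arrays for 34 of the 73 genes (background 30.3%) and below them for 12 (background 33.6%). Against P10 cornea they lay above for 38 genes (background 30.9%) and below for 16 (background 49.8%). The count of 7 was 4 without adult cornea replicate 1, 3 without replicate 2, 2 without lens replicate 2 and 4 without either tendon array. The counts against P10 cornea also moved: the 28 to 15 without P10 replicate 2 and 16 without lens replicate 1, and the 8 to 4 without either P10 array and 2 without lens replicate 2.

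Marker values for other cells moved with this comparison. The summed index of the 19 measured corneal epithelium markers was 31410 to 33760 in adult cornea, 33490 to 34800 in P10 cornea and 3346 to 4145 in lens, with 16 of 18 tested higher in adult cornea than in lens. The 12 measured lens markers summed to 60060 to 63720 in lens and still to 8127 to 13380 in adult cornea and 12890 to 21510 in P10 cornea, and 12 of 12 were higher in lens than in adult cornea, 2 of them having passed the filter through lens only. The part of these cell types in the values that follow was not tested.

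Ndufa3, an accessory subunit of complex I, had the largest difference between lens and cornea. Its index was 2056 and 2472 in lens, 557 and 572 in tendon, 355 and 278 in P10 cornea, and 402, 630.4 and 286 in adult cornea. Both lens arrays were far above every other array. Lens exceeded adult cornea by 2.39 ± 0.29 (SE; limma adjusted p = 7.92e-05), P10 cornea by 2.78 ± 0.31 (limma adjusted p = 6.58e-05) and tendon by 1.97 ± 0.31 (limma adjusted p = 0.000535), and these calls held in each fit that left out an array. A second Ndufa3 probe set was at 170.0 and 127 in lens, 88.8, 109 and 88.7 in adult cornea, and 109 and 114 in tendon. Lens was again highest, but by only 0.55 ± 0.19 over adult cornea (SE; limma adjusted p = 0.0336) and 0.78 ± 0.21 over P10 cornea, and its 0.35 ± 0.21 over tendon was not called (limma adjusted p = 0.189). Both probe sets bear the suffix for probes that can match a sequence family, as do the chosen ones of 11 of the 73 genes, so a value may include related transcripts.

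Ndufc1, Ndufab1 and Ndufb8 are accessory subunits of complex I, and Ndufab1 is also the mitochondrial acyl carrier protein. Ndufc1 was at 964 and 598 in lens, 319, 230.4 and 147 in adult cornea, and 441 and 537 in tendon. Ndufab1 was at 750.2 and 421 in lens, 210.1, 183 and 114 in adult cornea, and 409 and 439.8 in tendon. For both, lens lay above cornea without overlap, with differences of 1.70 ± 0.31 (SE; limma adjusted p = 0.00118) and 1.69 ± 0.31 (SE; limma adjusted p = 0.00129). Both lens arrays also lay above tendon for Ndufc1, whereas for Ndufab1 lens and tendon overlapped. Ndufb8 was at 914 and 760.3 in lens and 184 to 451 in adult cornea, 1.55 ± 0.31 higher (SE; limma adjusted p = 0.00207). The accessory subunits lower in lens than in adult cornea were Ndufa9 and Ndufb3, by 0.70 and 0.75 (limma adjusted p = 0.0456 and 0.0294). Both calls were lost without adult cornea replicate 1, without replicate 2, without lens replicate 2, and with only the compared groups in the fit. The Ndufa9 call was also lost without either P10 array and without either tendon array. Of the 4 core subunits only Ndufv1 was called, at 986 and 888 in lens and 380.4 to 623 in adult cornea, 1.00 ± 0.23 higher (SE; limma adjusted p = 0.00454). Ndufs1, Ndufs3 and Ndufv2 had lens arrays at 136 to 156, 201 to 287 and 425 to 609, against 158 to 188, 192 to 352 and 270.3 to 575 in adult cornea, and were not called.

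Among complex III genes the small subunit Uqcrb was at 1277 and 1023 in lens and 262 to 529 in adult cornea, a difference of 1.49 ± 0.28 (SE; limma adjusted p = 0.00134). Uqcrc1, core protein 1, ran the other way. Its index was 247 and 183 in lens, 371, 557 and 347 in adult cornea, 738 and 789 in P10 cornea, and 598 and 631 in tendon. The lens arrays were the lowest, and adult cornea exceeded lens by 0.92 ± 0.23 (SE; limma adjusted p = 0.00812), a call lost without lens replicate 2 (adjusted p = 0.0810). P10 cornea exceeded lens by 1.77 ± 0.26 (SE; limma adjusted p = 0.000311).

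Of the 4 complex II genes 1, Sdha, was called lower in lens than in adult cornea, and 0 were higher. Sdha was at 21.8 and 12.4 in lens and 24.4 to 59.0 in adult cornea, and the difference, adult cornea minus lens, was 0.83 ± 0.27 (SE; limma adjusted p = 0.0264). That call was lost without adult cornea replicate 1, without replicate 2 or without lens replicate 2, with adjusted p up to 0.193, and with quantile normalization or only the compared groups in the fit, with adjusted p up to 0.0660. For Sdhc, P10 cornea exceeded lens by 1.01 ± 0.25 (SE; limma adjusted p = 0.00703), and without lens replicate 2 the adjusted p was 0.0616. Sdhb was at 548 and 358 in lens and 332 to 574 in adult cornea, which overlapped. In the ATP synthase, Atp5j2 and Atp5k, subunits f and e of the membrane part, were higher in lens than in adult cornea by 1.16 ± 0.27 and 1.29 ± 0.30, while Atp5d, the delta subunit of the head, was lower in lens by 0.99 ± 0.21 (SE; limma adjusted p = 0.00302). Of the other tested Atp5d probe sets, 1 was lower in lens by 1.31 ± 0.30 and 1, higher by 0.40 ± 0.18, was not called. Atp5j2 passed the filter through lens only.

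**Figure D4:**
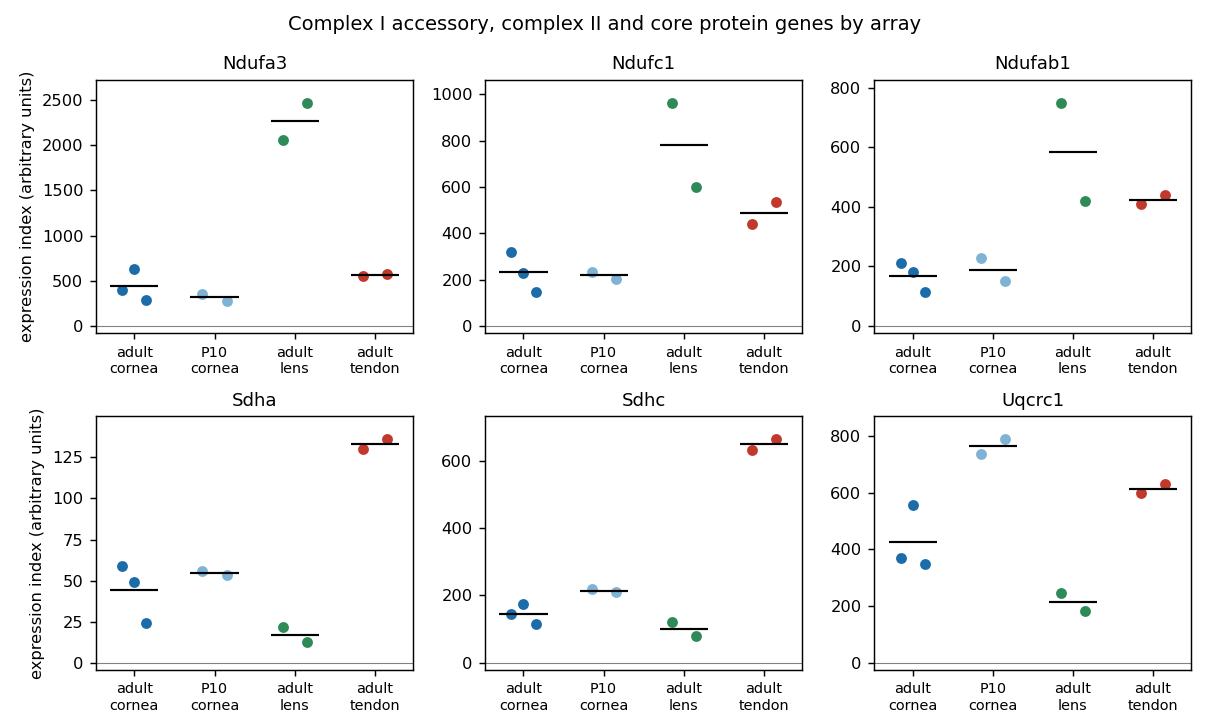
Expression index (arbitrary units) on each array for Ndufa3, Ndufc1, Ndufab1, Sdha, Sdhc and Uqcrc1, with points for arrays and a line for the group mean. The lens arrays are the highest for Ndufa3 (2056 and 2472) and the lowest for Uqcrc1 (247 and 183).

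Between lens and tendon, 27 members were higher in tendon and 6 in lens, where 49.0% of all tested probe sets were called, 26.4% and 22.6% in these directions. The tendon arrays lay above the lens arrays for 43 of the 73 genes (background 42.4%) and below for 14 (background 36.5%). The median difference, tendon minus lens, was 0.44, against 0.07 over all tested probe sets. Complex II again was called higher in tendon for 4 of 4 genes, with Sdhc at 2.54 ± 0.25 (SE; limma adjusted p = 1.70e-05) and Sdha at 2.19 ± 0.29 (SE; limma adjusted p = 0.000166). Among the 27, Sdha, Cox6a2, Cox7a1 and Cox8b passed the filter through tendon only, so their being called follows in part from the filter. Beside the muscle isoforms, Cyc1 had the largest difference, at 3.14 ± 0.30 (SE; limma adjusted p = 1.49e-05). The 6 genes higher in lens were Ndufa3, Cox6a1, Atp5j2, Cox6b2, Ndufa7 and Cox7a2, of which Atp5j2 and Cox6b2 had passed the filter through lens only. The count of 27 was 17 without lens replicate 2, 15 without tendon replicate 1 and 12 without tendon replicate 2. The count of 6 was 2 without lens replicate 1, 3 without lens replicate 2 and 2 without tendon replicate 1.

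Between the ages of the cornea, 1 of the 66 tested genes was called, Cyc1, which was lower in adult cornea than in P10 cornea, and 0 were higher. The background was 4.57% called in either direction, 3.88% called higher in P10 cornea and 0.699% called higher in adult cornea by limma. At an unadjusted p under 0.05, 6 members stood out, and the methods' t-test after adjustment called 0. The members' median difference, adult minus P10, was 0.07 on the log2 scale, against -0.13 over all tested probe sets. Rescaling the arrays moved the median of all tested probe sets to between -0.00 and 0.04 and that of the members to between 0.17 and 0.23, and without P10 replicate 2 the members' median was -0.07. The direction of so small a shift therefore was not fixed. The stromal markers differed at the same time: 7 of 12 were higher in P10 cornea, with a summed index of 23390 to 23780 there and 8876 to 10710 in adult cornea.

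The Cyc1 probe set with the higher mean was at 2375 and 2308 in P10 cornea, 837, 689 and 1388 in adult cornea, 459 and 321 in lens, and 3486 and 3540.1 in tendon. The P10 arrays lay above all 3 adult cornea arrays, by 1.32 ± 0.27 (SE; limma adjusted p = 0.024). A second Cyc1 probe set was at 1025 and 955 in P10 cornea and 846, 873 and 964 in adult cornea, which overlapped, and its difference of 0.15 ± 0.17 (SE) was not called (limma adjusted p = 0.794). The mean over both probe sets was not called (adjusted p = 0.0936). The call was also lost without adult cornea replicate 1, without either P10 array or without either tendon array, with adjusted p up to 0.185. Against the other tissues both Cyc1 probe sets were called in the same direction: adult cornea exceeded lens by 1.24 ± 0.27 and 0.64 ± 0.17, and tendon exceeded adult cornea by 1.90 ± 0.27 and 0.91 ± 0.17. The first probe set bears the suffix for a set from which some probe rules were dropped.

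**Figure D5:**
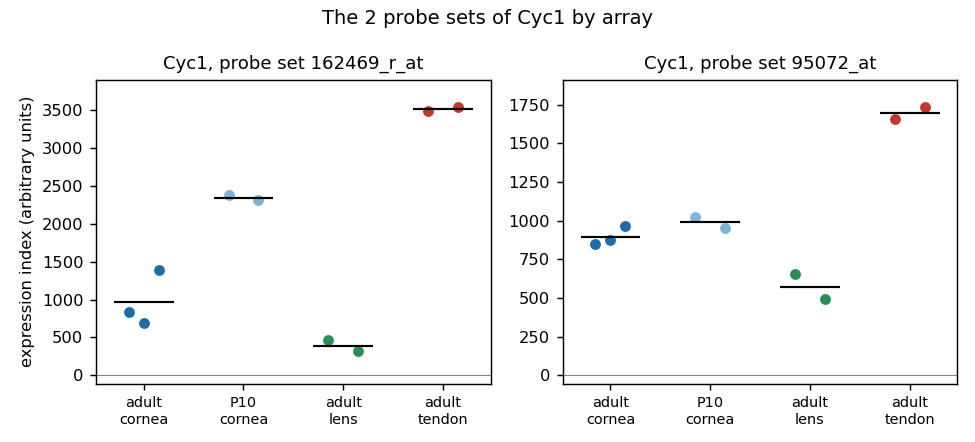
Expression index (arbitrary units) of the 2 Cyc1 probe sets on each array, with points for arrays and a line for the group mean. The first separates P10 cornea (2375 and 2308) from adult cornea (689 to 1388), and the second does not (955 and 1025 against 846 to 964).

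The other genes with an unadjusted p under 0.05 were not called. Uqcrc1 had a mean of 763 ± 35.8 (SD, n = 2) in P10 cornea and 425 ± 115 (SD, n = 3) in adult cornea, with no overlap and a limma adjusted p of 0.0784. Ndufs1 and Sdhc also had higher values in P10 cornea, and Ndufb2 and Cox7a2 higher values in adult cornea, with limma adjusted p between 0.204 and 0.287. Of the 73 genes 28 had the lower mean log2 value in adult cornea and 45 the higher. The arrays of the ages did not overlap for 6 genes higher in P10 cornea (background 25.1%) and 6 higher in adult cornea (background 6.46%).

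Arrays of the same group differed in the level of many members at once. Lens replicate 2 was lower than lens replicate 1 for 64 of the 73 genes, with a median difference of -0.41 against -0.17 (65.5% lower) over all tested probe sets. Adult cornea replicate 3 was lower than replicate 2 for 59 genes (median -0.50 against -0.01 over all tested probe sets) and lower than replicate 1 for 58. P10 replicate 2 was lower than replicate 1 for 61 genes (median -0.23 against -0.05), and tendon replicate 2 was higher than replicate 1 for 67 (median 0.16 against 0.08). The members' summed index was 22760 to 31050 in adult cornea, 24060 and 28210 in P10 cornea, 33860 and 43480 in lens, and 53300 and 58880 in tendon. The sums of tendon and of both corneas did not overlap, and the muscle isoforms left out, the tendon sums were 48690 and 53920.

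Other mitochondrial pathways were read beside the chain. Of 15 tested genes of the citric acid cycle and pyruvate dehydrogenase, 6 were lower in lens than in adult cornea and 1 higher, and 10 were higher in tendon than in adult cornea and 0 lower. Of all tested probe sets 27.2% were called lower and 24.0% higher in lens than in adult cornea, and 18.9% higher and 16.1% lower in tendon, and the counts of the lists that follow stand against the same shares, with no test of any list. Cs, citrate synthase, was at 125 and 97.1 in lens, 382, 576 and 360 in adult cornea, and 653 and 716 in tendon. Adult cornea exceeded lens by 1.82 on the log2 scale for Cs (limma adjusted p = 0.000115) and by 2.15 for Fh1, fumarase (limma adjusted p = 0.000213), whereas Idh2, the mitochondrial NADP-dependent isocitrate dehydrogenase, was higher in lens, at 450.5 and 270.3 against 40.5 to 83.9. Pdha1, the alpha subunit of pyruvate dehydrogenase, was at 1531 and 1476 in tendon and 206 to 429 in adult cornea.

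Of 14 tested genes of fatty acid oxidation, 8 were higher and 1 lower in tendon than in adult cornea, and 4 were lower in lens, near the share of all probe sets, and 1 higher. Of the 14, 1 passed the filter through tendon only, and of the 13 others 7 were higher in tendon. Acaa2, a thiolase of the pathway, was at 193 and 100.6 in lens and 834 to 1259 in adult cornea, while Cpt2, the inner membrane carnitine palmitoyltransferase, was at 926 and 680.4 in lens and 43.9 to 66.2 in adult cornea. Of 12 tested carriers and energy transfer genes, 5 were lower in lens than in adult cornea and 0 higher. Among the 10 that did not pass the filter through a single group, 4 were lower in lens. In 2 isoform pairs of this list the forms differed in opposite directions between cornea and tendon. Slc25a4, the muscle form of the ADP/ATP carrier, was at 3955 and 4385 in tendon and 484 to 824 in adult cornea, and Slc25a5, the general form, at 420.5 and 425 in tendon and 1885 to 2208 in adult cornea. Ckmt2, the sarcomeric mitochondrial creatine kinase, was at 1049 and 1029 in tendon and 2.40 to 13.1 elsewhere, and Ckmt1, the ubiquitous form, at 29.1 and 15.7 in tendon and 293 to 462 in adult cornea. Ckmt2 passed the filter through tendon only.

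Genes that build or maintain mitochondria were counted in the same way, where 35.0% of all tested probe sets were called between tendon and adult cornea. Of 8 tested assembly factors 1 was higher in tendon than in adult cornea, and of 21 tested mitochondrial ribosome genes 3 were higher and 2 lower. Of these 21, 1 passed the filter through adult cornea only, and of the 20 others 3 were higher and 1 lower. Of 8 tested genes of mitochondrial biogenesis and DNA maintenance, 0 were higher in tendon and 2 were lower, and 5 were lower in lens than in adult cornea, among them Polg, the mitochondrial DNA polymerase, at 47.1 and 71.2 in lens and 189 to 289 in adult cornea. Glycolysis genes, for comparison, were higher in tendon for 10 of 14 and lower for 3, and higher in lens for 6 and lower for 4. Between the ages of the cornea, of these 7 lists only the carriers had a called gene, Ucp1, higher in adult cornea. Ucp1 was at 96.8 to 189 in adult cornea and at 59.8 and 34.9 in P10 cornea. It passed the filter through adult cornea only, so its being called follows in part from the filter. Among the 10 carriers that did not depend on a single group, 0 were called.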

How the data were processed

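Deposited intensity values for 9 Affymetrix arrays were used. Each is an expression index on a linear scale. The submitters' processing notes name MAS5, and the series' design text names both Microarray Suite 5.0 and dChip, the latter for normalisation to an invariant set and model-based indices. Which of these produced the deposited values, and the genome build, are not given in the sources used here. Values below 0 occur on each array.

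The trimmed means of the arrays lay within a ratio of 1.171, under a limit of 1.25, so values were kept as deposited. Values below 0 were set to 0, 16 was added and log2 taken, so folds of low genes are understated. Probe sets that reached their array's median on at least 2 arrays were tested, 8154 in all, 87 of them with a value below -100. A group-means model over the 9 arrays was fitted with limma 3.58.1 in R 4.3.3 with trended variances (degrees of freedom: 5 residual, 4.933 prior). Two-sided p-values were adjusted by Benjamini-Hochberg within each of 6 comparisons and read at 0.05. Precision is limited by how few arrays there are, and groups of 2 borrow their spread. The code was tested on simulated data.

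Gene names came from the platform annotation, and 10 probe sets with several symbols were left out. Genes named were those with the 5 largest called differences in each direction of a comparison, Cyc1, Cycs, the Sdh genes, the Cox isoforms, and others by their values. From each list up to 3 called genes and fixed markers were named. The members and the 14 lists, with 199 of 251 entries on the array, were chosen with earlier results of these data known.

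Alternatives were pseudocounts of 1 and 64, no filter and a stricter one, 3 scalings, fits of only the groups compared, the mean over a gene's probe sets, dropping probe sets below -100, a replicate block, leaving out each array, and the methods' t-test (a fold of 2 and a difference of 100). A replicate number could pair arrays only if same-numbered arrays deviated together, and their deviations correlated at -0.363 to 0.201 across probe sets, so the numbers were not taken as pairs. Members were matched to RefSeq promoter windows by symbol.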

Additional observations from a re-analysis of the deposited data

How the results depend on the processing

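Every median difference of the members kept its direction under each alternative except that of adult against P10 cornea, given with its result. No called direction was reversed. The count higher in P10 than in adult cornea, 1 as reported, was 2 with quantile normalization, 0 with only the groups compared, 0 with the mean over probe sets, 0 by the methods' t-test after adjustment, and 0 to 2 with an array left out. Higher in adult cornea than in lens (7) became 3 with only the groups compared, 0 by the t-test before and after adjustment, and 2 to 9 with an array left out. Higher in lens than in adult cornea (21) became 10 and 0 by the t-test before and after adjustment. Against tendon, the single gene higher in adult cornea became 0 by the t-test and 0 to 1 with an array left out, and the 41 higher in tendon became 26 and 6 by the t-test and 16 to 45 with an array left out. For P10 cornea against lens, the 8 became 5 with median centring, 0 by the t-test and 2 to 10 with an array left out, and the 28 became 8 and 0 by the t-test and 15 to 30 with an array left out. For P10 cornea against tendon, the 0 became 1 with quantile normalization or only the groups compared and 0 to 1 with an array left out, the 38 became 19 and 0 by the t-test and 12 to 46 with an array left out, and the median of P10 minus tendon lay between -1.03 and -0.76. For lens against tendon, the 6 became 1 and 0 by the t-test and 2 to 7 with an array left out, and the 27 became 6 and 0 by the t-test and 12 to 29 with an array left out. With a replicate block the counts were 0 and 1 (adult against P10), 7 and 17 (adult against lens), 1 and 32 (adult against tendon), 8 and 29, 0 and 45 (P10 against lens and tendon), and 7 and 27 (lens against tendon), and same-numbered arrays did not deviate together. Centring moved the share of all calls that were higher in P10 from 62.0% to 50.6% against lens and from 58.7% to 48.5% against tendon, and that of calls higher in adult than in P10 cornea from 15.3% to 29.0%. Of the calls of genes that were tested in each of the 9 fits with an array left out, 16 of 24 between adult cornea and lens were kept in all 9, 16 of 38 between adult cornea and tendon, 17 of 33 between P10 cornea and lens, 12 of 34 between P10 cornea and tendon, and 14 of 27 between lens and tendon. The other calls were of genes that failed the filter in some of these fits. Levels near 0 give no order, and groups of 2 or 3 arrays limit what could be called.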
